A study of Mus musculus with 12 samples.

Results

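The 26S proteasome is the multi-subunit protease that degrades ubiquitin-tagged proteins, and its subunit genes were read across genotype and time of day in mouse skeletal muscle. Members were the genes whose symbol is Psma, Psmb, Psmc or Psmd followed by a number, without the immunoproteasome genes Psmb8, Psmb9 and Psmb10. This gave 35 genes of the 14270 in the table, 15 of the core particle (Psma and Psmb) and 20 of the regulatory particle (Psmc and Psmd). A mean of at least 1 FPKM (fragments per kilobase of transcript per 1000000 fragments) over the 12 libraries was needed for testing, and 34 members reached it. The other member was Psmb11, the beta subunit gene of the thymus, which was listed at 0 in 10 libraries and at 0.04 and 0.03 FPKM in replicates 1 and 3 of the KO group at ZT22.

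The RNA was from tibialis anterior, a muscle of the lower hind limb, taken from mice labelled WT or KO, where KO stands for loss of the Rev-erbs (the clock repressors Nr1d1 and Nr1d2) in skeletal muscle. The 4 groups of 3 libraries were WT at ZT10, KO at ZT10, WT at ZT22 and KO at ZT22, with ZT the hours after lights on. Times follow the sample titles; ZT0 and ZT12 are the times named in the design text. The labels give no strain, age, sex or Cre driver, do not say whether WT mice carried floxed alleles, and do not say whether replicates were separate animals, so p-values measure the spread between these samples.

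In the proteasome, rings of alpha subunits gate the entry to a chamber formed by rings of beta subunits, which hold the proteolytic sites. The regulatory particle caps the chamber: its base, a ring of ATPases with scaffold and ubiquitin-binding subunits, unfolds substrates, and its lid removes ubiquitin. In muscle the ubiquitin-proteasome system is known for the breakdown of myofibrillar proteins during atrophy, and the transcription factor encoded by Nfe2l1 is known to raise proteasome subunit genes together when proteasome activity falls. Psmd5, Psmd9 and Psmd10 carry regulatory particle names but encode chaperones of its assembly.

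The libraries labelled KO did not have low Nr1d1. Its level ran from 27.6 to 54.0 FPKM in the 6 WT libraries and from 327.7 to 502.8 FPKM in the 6 labelled KO. Over both times, Nr1d2 ran from 28.4 to 43.6 FPKM in WT and from 36.3 to 40.6 FPKM in KO. At ZT22 Nr1d2 was at 29.7, 28.4 and 29.2 FPKM in WT and 38.9, 37.6 and 36.3 FPKM in KO. It was higher in KO there by 0.36 ± 0.08 (SE) on the log2(FPKM + 1) scale (limma adjusted p = 0.0078). At ZT10 its groups overlapped and the difference of -0.07 did not pass (limma adjusted p = 0.593). Values per gene do not show whether an exon was deleted, so the genotype is written below as the label of the libraries. Defining myofibre genes were the most abundant of the marker lists, at a summed 53730 to 91700 FPKM, and 5 of 7 leukocyte markers were in the table at a summed 4.83 to 9.01 FPKM. In bulk muscle, fewer cells of a type and less RNA per cell cannot be told apart. Depth was estimated only roughly, at 10.77 to 12.88 times 1000000 fragments per library.

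Levels differed widely between subunit genes on the FPKM scale, which is per transcript length. The summed level of the 35 genes was 2691 ± 185 FPKM (SD, n = 3) in WT at ZT10, 2683 ± 67.3 in KO at ZT10, 2477 ± 125 in WT at ZT22 and 2729 ± 112 in KO at ZT22. By mean level over all libraries, Psmb7 (190.6 FPKM), Psmd8 (174.8 FPKM) and Psmb3 (136.1 FPKM) were highest, and the chaperones Psmd5, Psmd9 and Psmd10 were lowest at 8.62, 7.10 and 5.37 FPKM. The remaining tested members lay between Psmd14 (31.5 FPKM) and Psmc3 (108.4 FPKM). Replicates of members lay close together, with a median SD of 0.09 to 0.11 on the log2(FPKM + 1) scale in the 4 groups, against 0.10 to 0.15 over the 9953 genes tested.

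At ZT10 no subunit gene differed between the genotype labels by the test used. limma called 0 of 34 members at an adjusted p under 0.05, where it called 14.3% of all genes tested (5.36% higher and 8.96% lower in KO). None of the 34 had an unadjusted p under 0.05, and the lowest adjusted p was 0.226, for Psmd5. Log2 differences, KO minus WT on the log2(FPKM + 1) scale here and below, ran from -0.24 (Psmd8) to 0.22 (Psmd10), with a median of 0.03 against -0.05 for all genes. The 3 libraries labelled KO lay wholly above WT for Psmc6, Psmd4 and Psmd10 and wholly below for Psmd1, where 30.2% of all genes had groups apart (11.1% higher and 19.1% lower). The authors' deposited table gave a q under 0.05 to 0 members at this time and to 6.8% of all genes.

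At ZT22 subunit genes of most sub-complexes were higher in the libraries labelled KO, and some beta genes were lower. limma called 15 of 34 members: 12 rose and 3 fell in KO, where 18.3% of all genes were called (7.13% higher and 11.2% lower). The genes that rose belonged to the alpha ring (Psma1, Psma2, Psma5), the ATPase ring (Psmc1, Psmc6), the base scaffold and ubiquitin receptor (Psmd1, Psmd2, Psmd4) and the lid (Psmd11, Psmd12, Psmd14), with Psmb1 of the beta ring. The 3 that fell were all beta genes, Psmb4, Psmb5 and Psmb6. The median log2 difference was 0.22 over the members and -0.04 over all genes. A total of 18 members had all 3 KO libraries above WT and 5 had all 3 below, where 18.3% and 23.1% of all genes did so (41.5% in either direction). Some marker lists of cell types also moved with the label at ZT22. The summed level of 8 myofibre markers was 53730 to 60110 FPKM in WT and 64950 to 68260 FPKM in KO (1 of 7 tested rose and 1 fell), and it was also apart at ZT10, at 72820 to 81970 and 88370 to 91700 FPKM. The sum of 4 endothelial markers was 73.7 to 93.3 FPKM in WT and 65.3 to 71.9 FPKM in KO at ZT22 (0 of 4 tested rose and 1 fell), and that of 3 satellite cell markers 1.99 to 3.07 and 3.29 to 3.56 FPKM (the 1 tested rose). The sum of 4 adipocyte markers was 6.7 to 14.4 FPKM in WT and 4.58 to 6.49 FPKM in KO at ZT22 (0 of 2 tested rose and 0 fell). At ZT10 the adipocyte sum was apart in the other direction, at 2.38 to 4.66 FPKM in WT and 4.95 to 13.83 FPKM in KO. Sums of the fibroblast, red blood cell, Schwann cell and leukocyte lists overlapped between the labels at ZT22. No marker of these lists was at 0 in all libraries, and their part in the subunit differences was not tested.

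**Figure D1:**
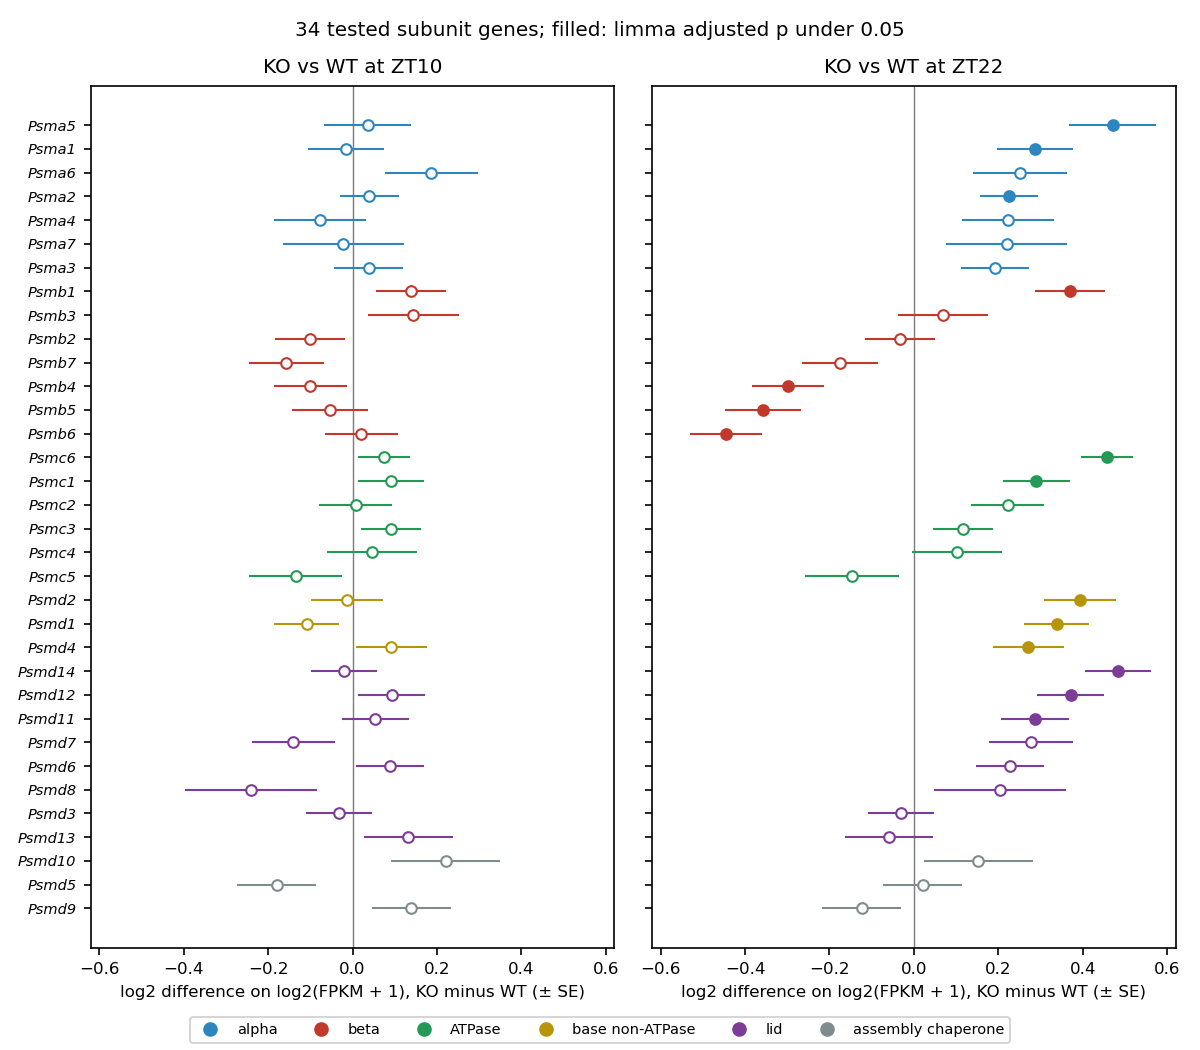
Log2 difference, KO minus WT on the log2(FPKM + 1) scale with its standard error, for each of the 34 tested subunit genes at ZT10 (left) and ZT22 (right), coloured by sub-complex, with filled points for a limma adjusted p under 0.05. No point is filled at ZT10; at ZT22, 12 filled points lie to the right of 0 and the 3 filled points to its left are beta genes.

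The count at ZT22 depended on single libraries. It was 8 (7 rose, 1 fell) without WT replicate 2 at ZT22 and 8 (7 rose, 1 fell) without KO replicate 1 at ZT22, and 8 to 17 over all 12 ways of leaving out 1 library. The same 8 genes, Psma5, Psmb1, Psmb6, Psmc6, Psmd1, Psmd2, Psmd12 and Psmd14, kept their call in each of those 12 fits and in all 7 other settings.

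Promoters are shown for the 2 regulatory genes with the smallest adjusted p at ZT22 and for the 2 catalytic genes that fell. A RefSeq promoter was found for 29 of the 35 members, and the 250 bases before the start are printed 5′ to 3′ from GRCm38.p6. Psmc6 lies at chr14:45329574-45329823 (plus strand), Psmd14 at chr2:61711444-61711693 (plus), Psmb6 at chr11:70525107-70525356 (plus) and Psmb5 at chr14:54617996-54618245 (minus). Capitals mark a match, on either strand, to TGACNNNGC, the antioxidant response element core bound by the factors of Nfe2l1 and Nfe2l2, or in Psmd14 to CCAAT, bound by NF-Y.
Psmc6: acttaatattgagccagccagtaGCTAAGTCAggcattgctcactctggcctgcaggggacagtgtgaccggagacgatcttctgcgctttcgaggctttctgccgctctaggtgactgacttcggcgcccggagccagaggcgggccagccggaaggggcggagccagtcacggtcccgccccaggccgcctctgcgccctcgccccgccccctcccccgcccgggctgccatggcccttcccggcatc
Psmd14: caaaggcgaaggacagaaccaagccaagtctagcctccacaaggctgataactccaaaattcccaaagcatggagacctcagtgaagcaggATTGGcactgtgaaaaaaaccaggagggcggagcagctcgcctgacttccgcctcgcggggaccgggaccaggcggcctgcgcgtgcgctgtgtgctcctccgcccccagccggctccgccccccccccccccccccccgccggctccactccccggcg
Psmb6: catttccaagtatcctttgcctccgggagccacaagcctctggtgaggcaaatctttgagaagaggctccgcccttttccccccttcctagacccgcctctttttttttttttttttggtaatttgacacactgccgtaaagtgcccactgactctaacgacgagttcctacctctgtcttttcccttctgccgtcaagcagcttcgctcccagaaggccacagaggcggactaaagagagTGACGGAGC
Psmb5: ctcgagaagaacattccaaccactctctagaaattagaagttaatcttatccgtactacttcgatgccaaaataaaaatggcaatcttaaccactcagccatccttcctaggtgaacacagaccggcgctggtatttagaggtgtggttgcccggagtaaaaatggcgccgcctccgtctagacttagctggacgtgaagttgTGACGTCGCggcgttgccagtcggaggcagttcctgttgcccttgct
The TGACNNNGC match begins 227 bases before the RefSeq start in Psmc6, 9 in Psmb6 and 47 in Psmb5, and the CCAAT match 159 in Psmd14. Both strands were searched in windows of 250 bases. TGACNNNGC was found in 5 of 29 members (Psmb5, Psmb6, Psmc6, Psmd9 and Psmd12), or 17.2%, and in 12.3% of 7931 tested genes with a promoter. By call at ZT22, it was in 2 of 11 members that rose and 2 of 3 that fell. CCAAT was found in 41.4% of members and 36.7% of all genes, AGGTCA, the core bound by REV-ERB and ROR receptors, in 24.1% and 10.3%, and CACGTG, the E-box of clock activators, in 6.9% and 8.91%. AGGTCA was in 1 of 11 members that rose, 0 of 3 that fell and 6 of 14 that did not pass. A match describes the letters of the window and not binding.

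Among the ATPases, which unfold substrates, Psmc6 had the smallest adjusted p of all members. Its level at ZT22 was 65.3, 62.8 and 63.7 FPKM in WT and 87.5, 90.9 and 86.1 FPKM in KO. At ZT10 it was 63.3, 63.3 and 66.6 FPKM in WT and 68.6, 67.5 and 67.5 FPKM in KO. Only the KO libraries at ZT22 stood well above the rest, and Psmc6 rose there by 0.46 ± 0.06 (SE) on the log2 scale (limma adjusted p = 0.000419). Psmc1 was at 79.9, 74.3 and 73.4 FPKM in WT and 91.9, 94.2 and 92.6 FPKM in KO at ZT22, against 91.1, 79.3 and 74.5 FPKM and 84.7, 87.1 and 88.3 FPKM at ZT10. The genotype groups were apart at ZT22 and overlapped at ZT10, and Psmc1 rose at ZT22 by 0.29 ± 0.08 (limma adjusted p = 0.0239). The other 4 ATPase genes did not pass, with log2 differences at ZT22 of 0.22 for Psmc2, 0.12 for Psmc3, 0.10 for Psmc4 and -0.15 for Psmc5. All 3 KO libraries of Psmc5 lay below WT.

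Of the non-ATPase base genes, the 3 that the symbol rule takes in as members all rose at ZT22. Psmd2, a large scaffold subunit that docks ubiquitin shuttles, was at 80.3, 73.4 and 69.6 FPKM in WT and 93.3, 93.3 and 107.9 FPKM in KO. Its ZT10 values, 87.4, 94.6 and 94.5 FPKM in WT and 97.3, 90.4 and 86.4 FPKM in KO, overlapped each other. The WT libraries at ZT22 were thus the lowest of the 4 groups, and the difference at ZT22 was 0.39 ± 0.09 (limma adjusted p = 0.00765). Psmd1, the other large scaffold subunit, was at 69.2, 64.4 and 62.9 FPKM in WT and 81.6, 81.5 and 86.1 FPKM in KO at ZT22. At ZT10 it was at 65.8, 63.7 and 63.7 FPKM in WT and 63.0, 62.9 and 53.6 FPKM in KO. For Psmd1 the KO libraries at ZT22 were highest, and it rose by 0.34 ± 0.08 (limma adjusted p = 0.0105). Psmd4, a ubiquitin receptor, was at 92.6, 79.7 and 74.8 FPKM in WT and 98.5, 93.7 and 105.8 FPKM in KO at ZT22, with 108.3, 102.2 and 107.9 FPKM and 115.4, 113.8 and 110.2 FPKM at ZT10. The groups were apart at both times and only the ZT22 difference of 0.27 ± 0.08 passed (limma adjusted p = 0.0417).

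In the lid, Psmd14 changed most. It encodes the deubiquitinase that clips ubiquitin chains from substrates as they enter. Its level at ZT22 was 26.4, 26.1 and 25.9 FPKM in WT and 36.6, 35.5 and 38.7 FPKM in KO, and at ZT10 it was 34.6, 30.01 and 30.4 FPKM in WT and 32.9, 31.5 and 29.1 FPKM in KO. The WT libraries at ZT22 were the lowest and the KO libraries at ZT22 the highest of the 12, a difference of 0.48 ± 0.08 (limma adjusted p = 0.00141). Psmd12, a lid scaffold subunit, was at 61.2, 63.4 and 66.3 FPKM in WT and 80.7, 80.4 and 86.8 FPKM in KO at ZT22. At ZT10 Psmd12 was at 76.5, 63.0 and 68.4 FPKM in WT and 72.7, 72.7 and 76.0 FPKM in KO, which overlapped. It rose at ZT22 by 0.37 ± 0.08 (limma adjusted p = 0.00725), and Psmd11, known from human cells and worms to promote assembly of the 26S form, rose by 0.29 ± 0.08 (limma adjusted p = 0.0266). The other 5 lid genes did not pass: Psmd6, Psmd7 and Psmd8 had differences of 0.23, 0.28 and 0.20, and Psmd3 and Psmd13 had -0.03 and -0.06. Psmd3 lies 72.0 kb from Nr1d1 on chromosome 11 (GRCm38) and its genotype difference was -0.03 at both times. The chaperone genes Psmd5, Psmd9 and Psmd10 did not pass at ZT22, with differences of 0.02, -0.12 and 0.15.

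The 7 alpha genes all had positive differences at ZT22, from 0.19 (Psma3) to 0.47 (Psma5), and 3 of them passed. Psma5 was at 32.6, 32.1 and 28.02 FPKM in WT and 37.6, 46.7 and 45.7 FPKM in KO at ZT22, and at 37.2, 32.0 and 32.1 FPKM in WT and 32.0, 36.8 and 35.0 FPKM in KO at ZT10. The groups were apart at ZT22, where KO replicate 1 lay below the other 2 KO libraries, and overlapped at ZT10. Psma5 rose by 0.47 ± 0.10 (limma adjusted p = 0.00831). Psma2 was at 79.8, 75.9 and 70.0 FPKM in WT and 91.0, 86.3 and 86.8 FPKM in KO at ZT22, with 73.2 to 79.5 FPKM in the 6 libraries at ZT10. The KO libraries at ZT22 were the highest of the 12, with a difference of 0.23 ± 0.07 (limma adjusted p = 0.0397), and Psma1 rose by 0.29 ± 0.09 (limma adjusted p = 0.0438). Of the 4 that did not pass, Psma3, Psma4 and Psma6 had all KO libraries above WT and Psma7 had groups that overlapped.

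The beta genes went several ways at ZT22. Psmb6, which encodes the subunit with caspase-like activity, was at 105.0, 95.9 and 99.98 FPKM in WT and 69.8, 73.8 and 76.7 FPKM in KO. At ZT10 it was at 110.6, 96.6 and 91.1 FPKM in WT and 101.1, 93.7 and 107.4 FPKM in KO. Only the KO libraries at ZT22 stood below the rest, and Psmb6 fell by 0.45 ± 0.09 on the log2 scale (limma adjusted p = 0.00419). Psmb5, the subunit with chymotrypsin-like activity and the target of clinical proteasome inhibitors, was at 83.5, 84.9 and 83.0 FPKM in WT and 56.6, 71.1 and 68.9 FPKM in KO at ZT22. At ZT10 Psmb5 was at 104.9, 91.5 and 97 FPKM in WT and 94.7, 89.8 and 97.7 FPKM in KO. KO replicate 1 at ZT22 was the lowest of all, and Psmb5 fell by 0.36 ± 0.09 (limma adjusted p = 0.0164). Psmb7, the subunit with trypsin-like activity, was at 214.7, 204.4 and 194.5 FPKM in WT and 175.5, 181.5 and 185.95 FPKM in KO at ZT22, and at 206.5, 175.9 and 214.4 FPKM and 161.7, 187.1 and 185.6 FPKM at ZT10. Its groups were apart at ZT22 and overlapped at ZT10, and its difference of -0.17 ± 0.09 did not pass (limma adjusted p = 0.194).

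Of the beta genes without a proteolytic site, Psmb4 was at 91.6, 87.2 and 80.1 FPKM in WT and 64.7, 70.1 and 75.3 FPKM in KO at ZT22, and at 113.2, 98.1 and 96.6 FPKM and 97.7, 95.1 and 93.6 FPKM at ZT10. It fell at ZT22 by 0.30 ± 0.09 (limma adjusted p = 0.0309), a call lost with another scaling of the libraries or with a length trend removed. Psmb1 stood against its ring: it was at 89.0, 84.9 and 85.6 FPKM in WT and 110.2, 110.9 and 115.2 FPKM in KO at ZT22. At ZT10 Psmb1 was at 97.8, 85.9 and 86.3 FPKM in WT and 110.7, 96.3 and 90.9 FPKM in KO, with overlap. It rose at ZT22 by 0.37 ± 0.08 (limma adjusted p = 0.00968). Psmb2 and Psmb3 did not pass, with differences of -0.03 and 0.07.

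**Figure D2:**
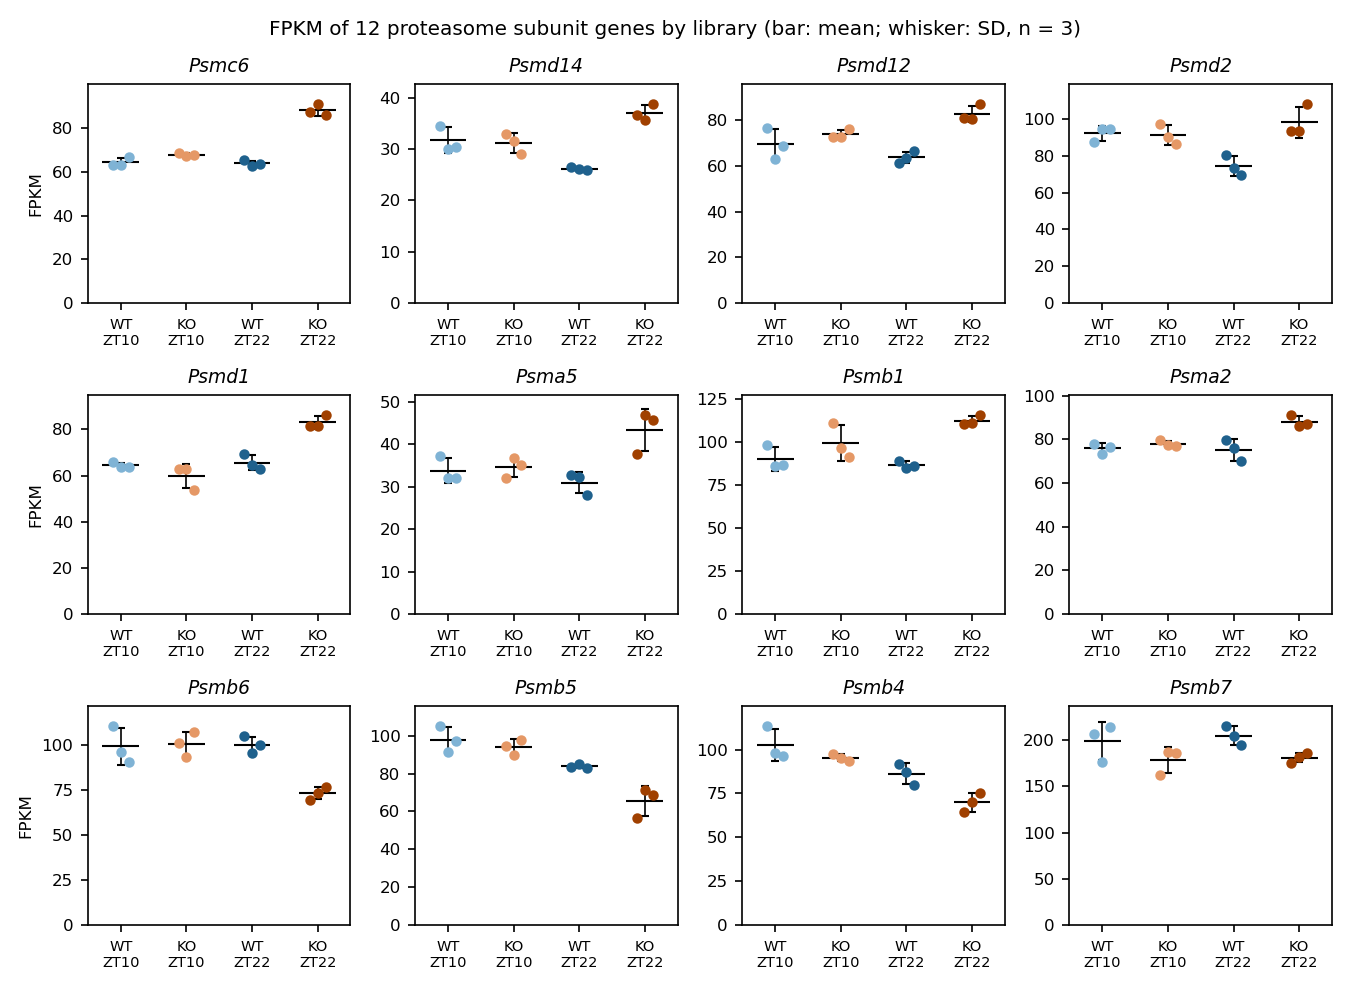
FPKM of 12 subunit genes in every library (points, linear axis from 0) with the group mean (bar) and SD (whisker, n = 3) for WT and KO at ZT10 and ZT22. In Psmc6, Psmd14 and Psmb1 the 3 KO libraries at ZT22 lie above the WT libraries at ZT22, and in Psmb4, Psmb5, Psmb6 and Psmb7 they lie below them.

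Calls outside the 8 stable genes were lost when some library was left out. Psmb5 lost its call without WT replicate 1, WT replicate 2 or KO replicate 1 at ZT22 (limma adjusted p up to 0.0697), and Psmb4 without those libraries or KO replicate 2 at ZT22 (up to 0.127). Psmd11 lost it without WT replicates 1 or 2 or KO replicates 1 or 3 at ZT22 (up to 0.107), and Psmc1 without WT replicates 2 or 3 or any KO library at ZT22 (up to 0.0837). Psma1, Psma2 and Psmd4 lost theirs in 7, 7 and 8 of the 12 fits, with limma adjusted p up to 0.16, 0.138 and 0.14. For Psma1 these were the fits without WT replicates 2 or 3 at ZT10, any WT library at ZT22 or KO replicates 1 or 3 at ZT22. For Psma2 they were those without WT replicate 3 or KO replicate 2 at ZT10, WT replicates 2 or 3 or any KO library at ZT22. For Psmd4 they were those without WT replicates 2 or 3 or KO replicate 2 at ZT10, WT replicates 2 or 3 or any KO library at ZT22, and its call was also lost when only the groups compared were fitted.

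The balance between core and regulatory genes moved little at ZT10 and toward the regulatory genes at ZT22. The balance between the rings of the core moved more at ZT22. The mean log2(FPKM + 1) of core genes minus that of regulatory genes was 0.75 ± 0.06 (SD, n = 3) in WT and 0.74 ± 0.01 in KO at ZT10, and 0.79 ± 0.03 in WT and 0.66 ± 0.06 in KO at ZT22. The change from WT to KO was -0.01 at ZT10 and -0.12 at ZT22, and the ZT22 groups did not overlap. With the median over members in place of the mean the ZT22 change was -0.23, and without Psmd5, Psmd9 and Psmd10 it was -0.15. Within the core, the mean of alpha genes minus that of beta genes was -0.72 ± 0.02 in WT and -0.68 ± 0.03 in KO at ZT10, and -0.58 ± 0.02 in WT and -0.19 ± 0.06 in KO at ZT22. The KO libraries at ZT22 lay between -0.23 and -0.12 and the 9 others between -0.74 and -0.57. The change from WT to KO was 0.04 at ZT10 and 0.39 at ZT22, where it was 0.47 without Psmb1, 0.38 with a length trend removed and 0.36 to 0.41 with 1 library left out. The split by ring was noticed in these values and is given as a description.

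**Figure D3:**
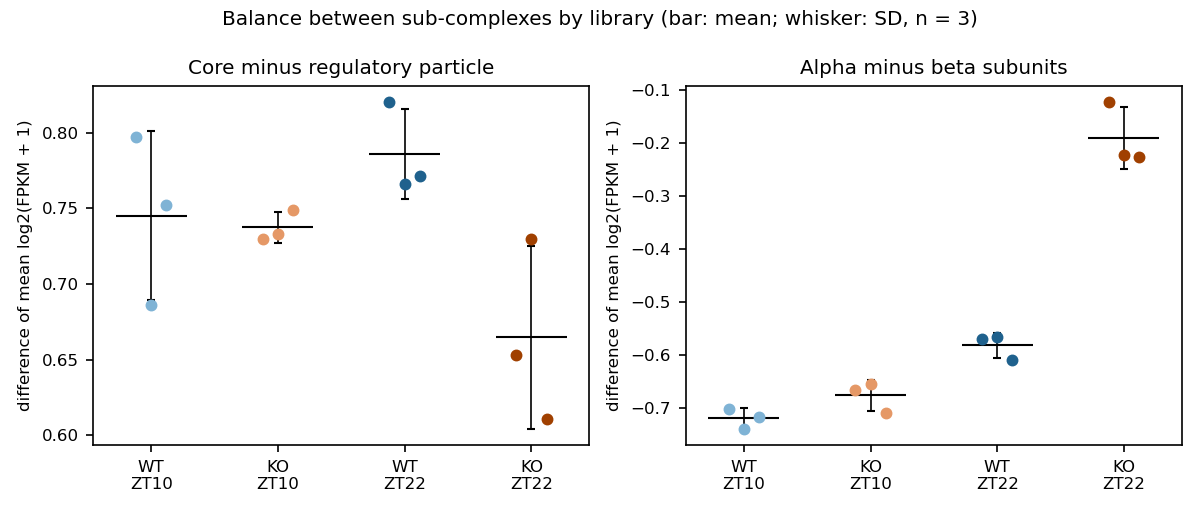
Difference between the mean log2(FPKM + 1) of core and regulatory genes (left) and of alpha and beta genes (right) in each library, with group mean (bar) and SD (whisker, n = 3); the vertical axes do not start at 0. On the right, the KO libraries at ZT22 lie between -0.23 and -0.12, above all other libraries.

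No subunit gene passed the test of whether the genotype difference itself changed between ZT10 and ZT22. limma called 0 of 34 members in it, where it called 0.0402% of all genes tested (0.0201% in each direction), and 10 members had an unadjusted p under 0.05. The smallest p belonged to Psmd14, Psmc6 and Psmd1, whose genotype differences were larger at ZT22 by 0.50 ± 0.11, 0.38 ± 0.09 and 0.45 ± 0.11 (limma adjusted p = 0.0763, 0.0833 and 0.0983). Their values in every library are given above. The median change over members was 0.18, against 0.00 over all genes. A call at ZT22 and none at ZT10 is thus not shown to be a difference between the times.

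Between times within a label, all genes together shifted upward, with a median of 0.10 in WT and 0.11 in KO for ZT22 minus ZT10, and log2 differences of members are read against that shift. In WT, limma called 5 of 34 members, all lower at ZT22, where 24.2% of all genes were called (18.4% higher and 5.77% lower). These were Psmd4, Psmd3, Psmd2, Psmb3 and Psmd14, and the median over members was -0.09. Psmd4 had the smallest adjusted p and fell by 0.37 ± 0.08 (limma adjusted p = 0.00883), or by 0.48 with median-of-ratios scaling, which takes out the shift. Psmd3, a lid scaffold gene, was at 72.98, 66.4 and 69.9 FPKM in WT at ZT10 and 58.1, 56.8 and 52.6 FPKM at ZT22, and in KO at 67.99, 62.8 and 73.9 FPKM and then 53.4, 53.6 and 56.8 FPKM. Both labels were lower at ZT22 with no overlap (51.2% of all genes had their KO libraries apart between times, and 43.6% their WT libraries), by 0.32 ± 0.08 in WT (limma adjusted p = 0.0127) and 0.31 ± 0.08 in KO (limma adjusted p = 0.00667). Psmd2 fell by 0.31 ± 0.09 in WT (limma adjusted p = 0.0211) and Psmd14 by 0.26 ± 0.08 (limma adjusted p = 0.0282).

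The WT count was 9, all lower, when libraries were scaled by median of ratios and 3 when a length trend was removed, and 2 to 7 with 1 library left out. It was 3 without WT replicate 1 or 3 at ZT10 and 2 without WT replicate 2 or 3 at ZT22. Of all 9953 genes tested, 1192 were higher and 1127 lower with median-of-ratios scaling, and 815 and 845 with a length trend removed. Psmd3 and Psmd4 kept their call in every setting run, while Psmb3, Psmd2 and Psmd14 lost theirs in 4 of 12 fits each (limma adjusted p up to 0.13, 0.0699 and 0.106). For Psmb3 these left out WT replicates 1 or 3 at ZT10 or WT replicates 2 or 3 at ZT22, for Psmd2 WT replicates 2 or 3 at ZT10 or 2 or 3 at ZT22, and for Psmd14 WT replicate 1 at ZT10 or any WT library at ZT22.

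Within the KO label, 17 of 34 members differed between times, 10 higher and 7 lower at ZT22, where 42.6% of all genes were called (28.9% higher and 13.7% lower). With median-of-ratios scaling 4 were higher and 10 lower, and with a length trend removed 13 were higher and 5 lower. Of all 9953 genes tested, 2036 were higher and 2184 lower with that scaling, and 1547 and 1645 with a length trend removed. The members that kept their call in every setting were Psma1, Psmc6, Psmd1 and Psmd11, which rose, and Psmb4, Psmb5 and Psmd3, which fell. Psmd1 rose by 0.47 ± 0.08 (limma adjusted p = 0.000535) and Psmc6 by 0.37 ± 0.06 (limma adjusted p = 0.000536). Psmd11 was at 55.8, 60.6 and 61.5 FPKM in KO at ZT10 and 79.2, 73.0 and 86.9 FPKM at ZT22, and at 54.6, 58.2 and 58.4 FPKM and then 65.4, 61.8 and 67.9 FPKM in WT. Its KO libraries at ZT22 were the highest, and it rose by 0.42 ± 0.08 in KO (limma adjusted p = 0.00136). Psmb5 fell by 0.52 ± 0.09 in KO (limma adjusted p = 0.000701). With median-of-ratios scaling the differences were 0.34 for Psmd1, 0.24 for Psmc6, 0.29 for Psmd11 and -0.65 for Psmb5.

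Of the other KO calls between times, Psma3, Psma4, Psma5, Psmd5, Psmd7 and Psmd14 rose and each lost its call with median-of-ratios scaling. Psmb3, Psmb6, Psmd9 and Psmd13 fell, and Psmb3 and Psmb6 lost their call with a length trend removed (limma adjusted p = 0.274 and 0.117). So did Psmd5, whose difference went from 0.29 to 0.07 (limma adjusted p = 0.478). The calls of Psma5, Psmd5, Psmd13 and Psmd14 were also lost when only the groups compared were fitted. Leaving out a library ended the calls of Psma4, Psma5, Psmd5, Psmd9, Psmd13 and Psmd14 in some fits (limma adjusted p up to 0.0732, 0.108, 0.0918, 0.0566, 0.0678 and 0.0898). For Psma4 and Psmd13 these were the fits without KO replicate 3 at ZT10 or KO replicates 1 or 2 at ZT22, and for Psmd9 the fit without KO replicate 1 at ZT22. For Psma5 they were without KO replicate 1 at ZT10 or KO replicates 2 or 3 at ZT22, for Psmd5 without KO replicate 1 at ZT10 or KO replicates 1 or 3 at ZT22, and for Psmd14 without KO replicates 2 or 3 at ZT10 or KO replicates 1 or 3 at ZT22. The comparisons share groups, so their values are given side by side and not as independent results.

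**Figure D4:**
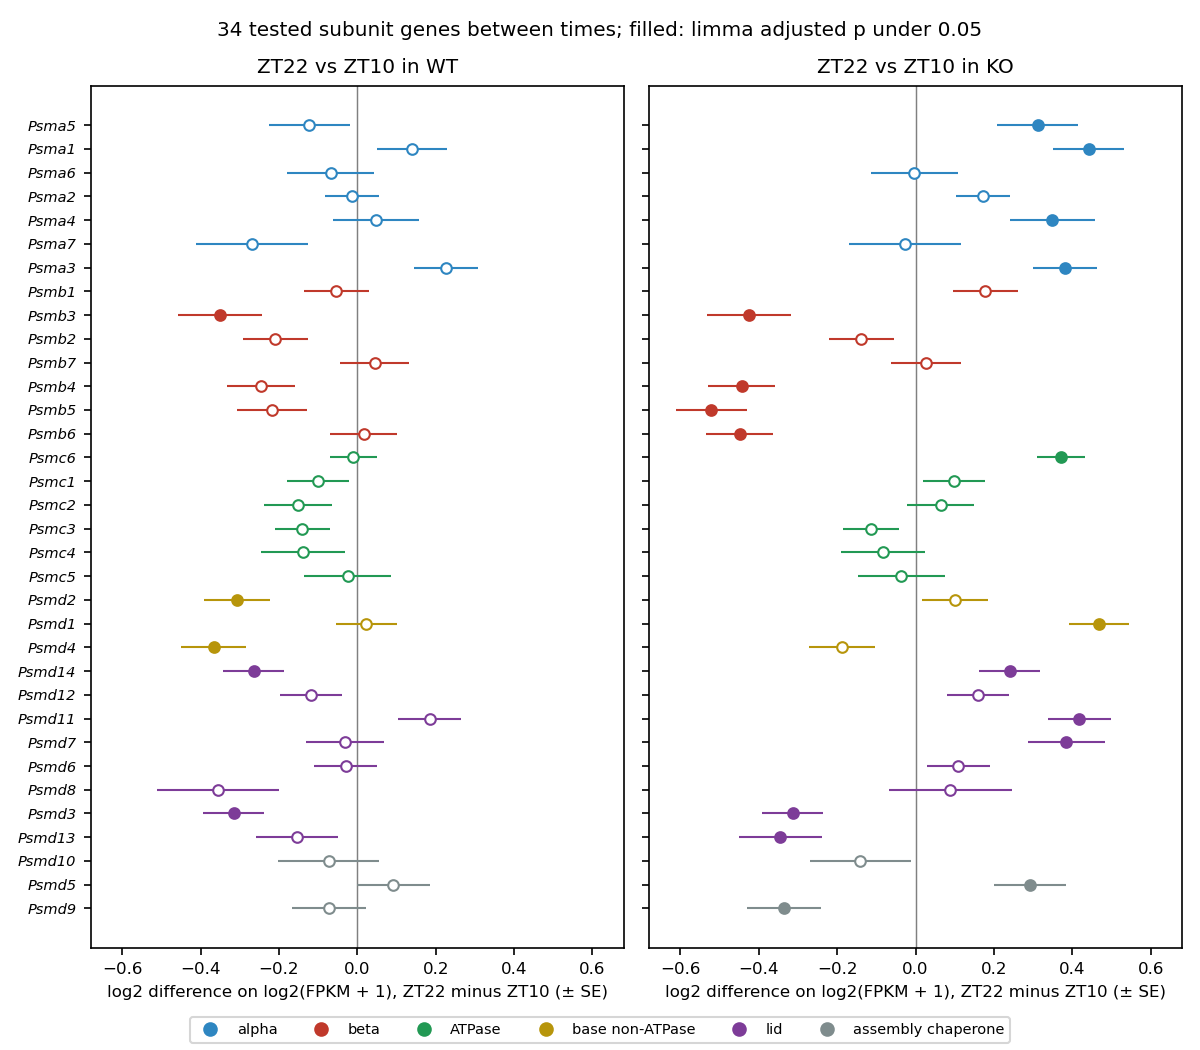
Log2 difference, ZT22 minus ZT10 on the log2(FPKM + 1) scale with its standard error, for the 34 tested subunit genes in WT (left) and KO (right), coloured by sub-complex, with filled points for a limma adjusted p under 0.05. The 5 filled points in WT all lie to the left of 0; in KO 10 lie to the right and 7 to the left, among them all 4 filled beta genes.

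Transcript length moved with these differences. By the longest annotated transcript, the beta genes tested were 766 to 1970 bp long, with 6 of 7 under the first quartile of all genes (1967 bp), and 5 of 7 alpha genes were also under it. At ZT22, genes under that quartile had a median KO minus WT difference of -0.10, with 5.7% rising and 15.7% falling, and longer genes had -0.02, with 7.61% and 9.73%. Across the 34 members, which share libraries, Spearman's rho of the ZT22 genotype difference with length was 0.34, and across 9901 genes it was 0.13. For ZT22 minus ZT10 in KO it was 0.43 across members and 0.51 across all genes, and in WT 0.19 and 0.41. With a length trend removed from each library, 17 members rose and 2 fell between genotypes at ZT22, where 971 of all 9953 genes tested rose and 968 fell. The part of RNA quality in these length relations was not tested.

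**Figure D5:**
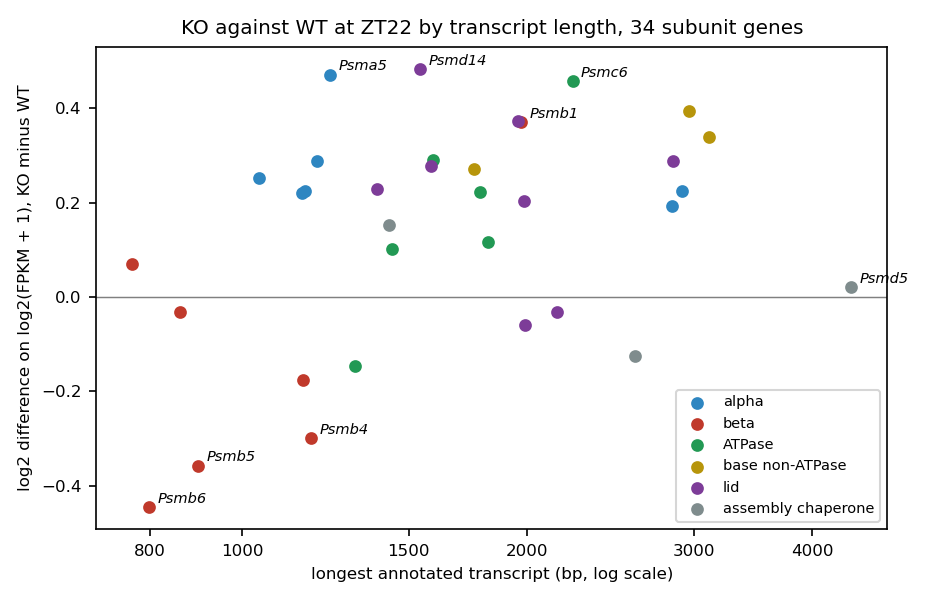
Log2 difference, KO minus WT at ZT22 on the log2(FPKM + 1) scale, of each of the 34 tested subunit genes against the length of its longest annotated transcript (bp, log axis), coloured by sub-complex. Alpha genes from 1042 bp upward lie above 0, and Psmb4, Psmb5 and Psmb6, at 798 to 1183 bp, lie lowest.

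In the authors' deposited table, 22 members were higher and 5 lower in KO at ZT22 with a q under 0.05, where 54.8% of all genes had one. Those q-values were of another kind than the rest: q lay below p for 7694 of 14270 genes and reached at most 0.444, while in the authors' other 3 comparisons no q lay below its p. The deposited log2 fold changes were near the values here for Psmc6 (0.44), Psmd14 (0.51) and Psmb6 (-0.44), but for Psmb5 the authors' deposited table gave -0.09 against -0.36 here. Between times, the authors' deposited table had 7 members lower and 0 higher in WT, where 14.5% of genes passed, and 1 was higher and 8 lower in KO, where 20.9% passed.

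Several members have near-identical copies, and no source used here says how the authors' counting split their reads. The Psmb5 transcript shares 98.9% of 796 bp with the pseudogene Gm3375, Psma5 98.6% of 952 bp with Gm8394, Psmd2 97.03% of 2590 bp with Gm5422, Psmb6 96.2% of 265 bp with Psmb6-ps2 and Psmc1 95.6% of 1306 bp with another pseudogene, so their levels are uncertain. The same holds for Psma3, Psma4, Psmb3, Psmd1 and Psmd11. Psmd1 shares 100% of 305 bp with Gm21972, whose exons overlap its own by 301 bp on the same strand. Exons of Psmb7, Psmc3, Psmd1 and Psmd13 overlap those of Nek6, Slc39a13, Htr2b and Sirt3 on the other strand by 405, 215, 252 and 342 bp. Those of Psmd9 overlap Gm26745 on the other strand by 1849 bp. Without a stated strand setting, reads of such overlaps cannot be told apart.

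The 3 immunoproteasome genes, which replace the catalytic beta subunits in immune cells and under interferon, were weakly expressed. Psmb10 was at 6.95, 6.84 and 6.32 FPKM in WT and 3.64, 3.01 and 2.75 FPKM in KO at ZT22, with no overlap, and fell by 0.90 ± 0.10 (limma adjusted p = 9.48e-05). Psmb8 and Psmb9 did not pass at ZT22, at 2.88 ± 0.77 and 1.75 ± 0.55 FPKM (SD, n = 3) in WT and 1.83 ± 0.19 and 1.60 ± 0.50 FPKM in KO, nor did any of the 3 at ZT10. The KO libraries of Psmb10 also lay wholly below WT at ZT10, with a difference of -0.32 ± 0.10 (limma adjusted p = 0.0518). Of all genes tested, 23.1% had their KO libraries wholly below WT at ZT22 and 19.1% at ZT10. Psme1 and Psme2, which form the interferon-inducible PA28 activator, fell at ZT22. Psme1 was at 26.04, 25.1 and 31.9 FPKM in WT and 16.8, 19.8 and 18.2 FPKM in KO, a fall of 0.57 ± 0.12 (limma adjusted p = 0.00649). Psme2 was at 20.3, 22.1 and 18.4 FPKM and 14.7, 15.4 and 14.9 FPKM, a fall of 0.41 ± 0.08 (limma adjusted p = 0.00408). Beside these, 2 of 5 tested interferon response genes (7 listed) fell at ZT22 and 0 at ZT10, where 11.2% and 8.96% of all genes fell. The list's summed level at ZT22 was 34.4 to 54.9 FPKM in WT and 32.7 to 34.3 FPKM in KO. Of the leukocyte markers 5 of 7 were in the table and 0 of 2 tested passed at ZT22, with summed levels of 5.84 to 7.54 FPKM in WT and 5.18 to 8.89 FPKM in KO, and 0 markers of either list were at 0 in all libraries. Their part in the falls was not tested.

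Of the other activators, Psme4, which encodes the PA200 cap, was at 76.7, 89.0 and 92.8 FPKM in WT and 60.0, 62.3 and 64.0 FPKM in KO at ZT10, and fell by 0.46 ± 0.08 (limma adjusted p = 0.00319). At ZT22 its groups overlapped, at 68.8 ± 2.53 FPKM (SD, n = 3) in WT and 72.5 ± 5.24 in KO. Psme3 did not pass at either time, with differences of 0.05 and -0.02. Txnl1, a thioredoxin bound to the proteasome, rose at ZT22 by 0.33 ± 0.07 (limma adjusted p = 0.00862), from 27.5 ± 1.86 to 34.8 ± 0.35 FPKM. In the list of 12 activators, inhibitor and associated proteins, of which 11 were tested, 1 fell at ZT10, and 1 rose and 2 fell at ZT22, where 14.3% and 18.3% of all genes were called.

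Assembly was represented by 8 tested chaperone genes, among them Pomp, the maturation factor of the core. At both times 0 of 8 were called between genotypes, where 14.3% and 18.3% of all genes were, with medians of 0.12 at ZT10 and -0.02 at ZT22. At either time 0 of the 8 had an unadjusted p under 0.05 in limma. Pomp was at 70.3 ± 3.68 FPKM (SD, n = 3) in WT and 72.8 ± 1.00 in KO at ZT22.

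Among genes that control subunit transcription, Nfe2l1 and Bach1 fell at ZT10 and Ngly1 rose at both times. Nfe2l1 was at 183.6, 195.0 and 210.5 FPKM in WT and 154.7, 140.1 and 117.7 FPKM in KO at ZT10, and fell by 0.52 ± 0.10 (limma adjusted p = 0.00436). At ZT22 it was at 213.9, 238.9 and 217.5 FPKM and 196.0, 177.2 and 179.5 FPKM, with no overlap, and the difference of -0.28 ± 0.10 did not pass (limma adjusted p = 0.074). Bach1, a repressor at antioxidant response elements, fell at ZT10 by 0.95 ± 0.17 (limma adjusted p = 0.00246), from 9.14 ± 1.52 to 4.26 ± 0.84 FPKM. Ngly1, the glycanase that processes the Nfe2l1 protein, rose at both times, from 17.5 ± 0.34 to 22.6 ± 2.30 FPKM at ZT10 (0.34 ± 0.09, limma adjusted p = 0.0299) and from 16.3 ± 0.71 to 22.5 ± 2.39 FPKM at ZT22 (0.44 ± 0.09, limma adjusted p = 0.00785). Its ZT10 call was lost when only the groups compared were fitted (limma adjusted p = 0.0905) and without any 1 of the 3 WT libraries or KO replicates 1 or 2 at that time (limma adjusted p up to 0.0888). Of 8 tested genes in the list, 1 rose and 2 fell at ZT10, where 14.3% of all genes were called, and 1 rose and 0 fell at ZT22, where 18.3% were. The genotype difference itself was not called to change between times for any of the 8 (limma adjusted p = 0.0995 for Bach1, 0.405 for Nfe2l1 and 0.767 for Ngly1).

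Upstream of the proteasome, 15 genes for ubiquitin, its activating enzymes, shuttles and the p97 unfoldase gave 0 rises and 1 fall at ZT10 and 2 rises and 0 falls at ZT22, where 14.3% and 18.3% of all genes were called. Ubqln4, a ubiquilin shuttle, fell at ZT10 by 0.77 ± 0.15 (limma adjusted p = 0.00451), from 50.1 ± 3.79 to 29.5 ± 7.76 FPKM. Its KO libraries also lay wholly below WT at ZT22, where the difference of -0.44 ± 0.15 did not pass (limma adjusted p = 0.0597). At ZT22 Rad23b, a shuttle of ubiquitylated substrates, rose by 0.34 ± 0.08 (limma adjusted p = 0.0106), from 59.9 ± 0.47 to 76.1 ± 2.27 FPKM. Nploc4, a p97 cofactor, rose by 0.42 ± 0.10 (limma adjusted p = 0.0152), a call lost without KO replicate 3 at ZT22 (limma adjusted p = 0.0615). Of the muscle atrophy ligases, Trim63 did not pass at either time. The KO libraries of Fbxo32 lay wholly above WT at ZT10, where its difference of 0.85 ± 0.30 did not pass (limma adjusted p = 0.0759). Fbxo32 was at 46.9, 48.3 and 50.2 FPKM in WT and 54.99, 95.1 and 165.6 FPKM in KO at ZT22. Its KO libraries spread widely above WT, and it rose by 0.96 ± 0.30 (limma adjusted p = 0.0411), a call lost in 6 of 12 fits with 1 library left out and in 3 of 7 other settings (limma adjusted p up to 0.124). Those 6 fits were without WT replicate 1 at ZT10, any WT library at ZT22 or KO replicates 2 or 3 at ZT22.

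Between times, few list genes kept their call in every setting run. In WT these were Maff, a small Maf partner of the Nfe2l1 protein, and Trim63, which fell, and Ufd1, a p97 cofactor, which rose. In KO they included Rad23b, Txnl1, Ubqln2 and Ufd1, which rose, and Trim63, which fell. Trim63 went from 200.7 ± 58.9 to 73.96 ± 10.2 FPKM in WT (limma adjusted p = 0.00491) and from 246.1 ± 64.2 to 104.7 ± 44.8 FPKM in KO (limma adjusted p = 0.00348). Of the chaperone list, 0 of 8 were called in WT, and 1 rose and 2 fell in KO, where 24.2% and 42.6% of all genes were called. Against the same shares, 0 of 8 transcriptional control genes rose and 1 fell in WT, and 3 rose and 1 fell in KO. In KO Nfe2l1 rose by 0.43, Mafg by 0.465 and Bach1 by 0.72 (limma adjusted p = 0.00461, 0.00985 and 0.00445). Each of these 3 calls was lost with a length trend removed (limma adjusted p = 0.165, 0.227 and 0.122).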

How the data were processed

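RNA was sequenced from tibialis anterior in 12 libraries, 4 groups of 3 taken from the sample titles. The authors deposited 1 table with an FPKM value per gene and library, and log2 fold changes, p-values and q-values for 4 pairs of groups. The table names no unit. FPKM was read from the values: multiplied by transcript length in kb they summed to 1167955 to 1234165 per library. Tools listed in the submitters' processing notes, without role or order, are DESeq2 1.8.2, HTSeq and HISAT2, and the builds are mm10 and GRCm38. For the annotation used in counting, and for strand, nothing is given in the sources used here. Of 14583 rows, 82 without values and 230 exact repeats were dropped, and of 2 differing Plin2 rows that of larger mean stayed. Lengths came from GENCODE M21 by symbol (14081 genes).

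Genes averaging 1 FPKM or more (9953) entered the test on the log2(FPKM + 1) scale, which understates changes of low genes, with limma 3.58.1 (R 4.3.3): 1 model of 12 libraries, a mean per group, an intensity trend, and Benjamini-Hochberg adjustment over all genes within a comparison, called under 0.05. Counts were not used here, so no interval for depth was computed. Depth came from the step between low values, which held only weakly (mean cosine 0.182 to 0.303). Sub-complex means are descriptions with no test. The model was tested on simulated data. Members and gene lists were chosen with earlier results of these data known. Values in every library are given for Psmb5, Psmb6 and Psmb7, the 6 core and 6 regulatory called members with the smallest adjusted p between genotypes, the 3 members with the smallest interaction p and the 4 smallest adjusted p in each comparison of times; list genes are named where called (1 is not reported here), with Nfe2l1, the immunoproteasome genes and Psme1 to Psme4 in any case. Same-numbered libraries had deviations correlated at -0.134 to 0.210, over 0.1 in 2 of 18 pairs. Their median was 0.061, against -0.025 for other numbers, and such weak correlations do not settle whether replicate numbers pair libraries. Near-identical transcripts were those of at least 95% identity over 200 bp.

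Alternatives were a pseudocount of 0.1, no filter, median-of-ratios scaling of FPKM, a length trend removed (lowess, span 0.3), robust empirical Bayes, a fit of the compared groups alone, the replicate block and each library left out. Those for alpha minus beta were chosen after seeing the data. Tables were made in Python 3.11.15 (pandas 2.3.3, numpy 2.4.6) and plots in matplotlib 3.10.9, with rank correlations from scipy 1.17.1.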

Additional observations from a re-analysis of the deposited data

How the results depend on the processing

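The counts of called members kept to within 1.5 times of the reported ones in most settings. At ZT22 between genotypes the count was 8 to 17 with 1 library left out, against 15. Between times in WT it was 9 with median-of-ratios scaling, 3 with a length trend removed and 2 to 7 with 1 library left out, against 5. The split of rises and falls between times in KO went from 10 and 7 to 4 and 10 with median-of-ratios scaling. The core minus regulatory change at ZT22 was -0.23 with the median over members, against -0.12. The core minus regulatory change at ZT10, -0.01 as reported and within the spread between libraries, was 0.001 without Psmd5, Psmd9 and Psmd10 and -0.04 to 0.02 with 1 library left out (0.02 without WT replicate 1 at ZT10). The core minus regulatory change at ZT22 and the alpha minus beta changes kept their sign in the settings run. Small differences of members that did not pass could change sign. At ZT22 between genotypes, Psmb2 went from -0.03 to 0.01 and Psmd3 from -0.03 to 0.01 with median-of-ratios scaling. Psmd13 went from -0.06 to 0.01 with a length trend removed.

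List counts were small and moved more. The immunoproteasome count at ZT10 was 1 with a length trend removed and 0 to 1 with 1 library left out, and at ZT22 1 to 2 with 1 left out. The transcriptional control count at ZT22 was 2 with only the groups compared and 1 to 2 with 1 library left out. The ubiquitin list at ZT10 gave 2 with median-of-ratios scaling, 2 with a length trend removed and 1 to 4 with 1 library left out, and at ZT22 4 with only the groups compared and 1 to 4 with 1 left out. The atrophy ligases at ZT10 gave 1 with only the groups compared and 0 to 1 with 1 library left out. At ZT22 they gave 0 with no filter, 0 with robust empirical Bayes, 0 with only the groups compared and 0 to 1 with 1 left out.

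With the replicate number as a block, the counts of called members in the 5 comparisons were 0, 15, 5, 17 and 0, as without it. Whether the numbers pair the libraries was not settled. Counts were not used here, so the precision that depth gives to each value is unknown.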
